A study of Homo sapiens with 12 samples.

Results

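The genes described here are 10 genes of the WNT pathway: the ligands WNT7A and WNT4, and 8 genes that beta-catenin is known to switch on as feedback or as markers of its activity, namely DKK1, RNF43, ZNRF3, LGR5, AXIN2, NKD1, TCF7 and LEF1. They were chosen by name. WNT7A and WNT4 were picked because they were raised by siRFX7 under Nutlin-3a in these data, and the others because HCT116 carries a mutant beta-catenin. Of the 10 genes, 9 were listed in at least 1 of the 4 result tables and 8 were listed in all 4, out of 23195 genes listed in any table and 19393 listed in all.

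PolyA RNA was sequenced from HCT116, a human colorectal carcinoma cell line. The cells received either siControl, the control siRNA, or siRFX7, directed at the transcription factor gene RFX7, and were then given 10 µM Nutlin-3a or the solvent DMSO for 24 h. The 4 groups, siControl with DMSO, siControl with Nutlin-3a, siRFX7 with DMSO and siRFX7 with Nutlin-3a, had 3 libraries each, made from 500 ng of total RNA. Nutlin-3a blocks the binding of MDM2 to p53 and so raises p53. The labels name no siRNA sequence, do not say how many siRNAs were used and do not say that replicates were separate cultures, so the p-values measure only the spread between these libraries.

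In the canonical WNT pathway a secreted WNT ligand binds a Frizzled receptor and its partner LRP5 or LRP6, the complex that marks beta-catenin for destruction is held back, and beta-catenin joins TCF and LEF factors on DNA. Many genes that are switched on in this way act back on the pathway: AXIN2 and NKD1 inside the cell, RNF43 and ZNRF3 on Frizzled receptors, and DKK1 outside the cell on LRP5 and LRP6. In a line with mutant beta-catenin the pathway is active below the receptor, and in the gut its activity is known for keeping stem cells, which LGR5 marks.

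The stretches of DNA just before the RefSeq starts of 4 of the genes are shown first, because the study lowered a DNA-binding factor and the pathway acts through another. Promoter windows from RefSeq (GRCh38.p14) were matched to 6 of the 10 genes: WNT4, WNT7A, LEF1, TCF7, DKK1 and RNF43. Each sequence is written 5′ to 3′ on the strand of its gene, and bases in annotated exons were left out, which leaves 200 bases for WNT7A and 189 for RNF43. The RefSeq start of WNT4 lies inside the longer span that GENCODE gives the gene, so its stretch is within that span and outside its exons. For WNT7A (chr3:13880122-13880321, minus strand) and WNT4 (chr1:22143098-22143347, minus strand) the capitals mark CG steps, the sites at which human DNA is methylated. For DKK1 (chr10:52314031-52314280, plus strand) they mark the TCF and LEF core CTTTGA on either strand, and for RNF43 (chr17:58417596-58417784, minus strand) GTTGCC, the core of sites that RFX factors bind.
WNT7A: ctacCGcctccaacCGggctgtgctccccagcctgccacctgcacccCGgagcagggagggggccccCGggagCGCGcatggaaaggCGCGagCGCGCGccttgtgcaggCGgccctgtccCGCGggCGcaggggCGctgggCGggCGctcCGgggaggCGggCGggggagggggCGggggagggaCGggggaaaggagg
WNT4: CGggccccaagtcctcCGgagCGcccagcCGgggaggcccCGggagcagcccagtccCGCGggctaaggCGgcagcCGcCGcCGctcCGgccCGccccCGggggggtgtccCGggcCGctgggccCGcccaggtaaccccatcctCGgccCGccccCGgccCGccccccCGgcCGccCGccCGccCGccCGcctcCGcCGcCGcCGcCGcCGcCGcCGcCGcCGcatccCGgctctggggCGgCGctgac
DKK1: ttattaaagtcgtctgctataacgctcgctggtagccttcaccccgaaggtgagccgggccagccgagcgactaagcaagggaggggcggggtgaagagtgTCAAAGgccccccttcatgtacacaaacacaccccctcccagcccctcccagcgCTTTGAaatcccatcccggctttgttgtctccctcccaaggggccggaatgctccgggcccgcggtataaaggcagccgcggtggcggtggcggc
RNF43: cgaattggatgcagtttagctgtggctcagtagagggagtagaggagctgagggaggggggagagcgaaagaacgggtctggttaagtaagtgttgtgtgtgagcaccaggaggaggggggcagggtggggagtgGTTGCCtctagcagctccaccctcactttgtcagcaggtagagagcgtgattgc

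CG steps were dense before both ligand genes. The 250 bases before the start held 40 CG steps and 86.8% G or C in WNT4, and 29 CG steps and 80.4% G or C in WNT7A. Over all 35116 RefSeq windows the median was 11 CG steps (quartiles 3 and 23) and 58% G or C (quartiles 46.4% and 68%). DKK1 had 18 CG steps and 62.8% G or C. CTTTGA was searched on both strands of the 250 bases and occurred in 11.2% of all windows, its longer form CTTTGAT in 2.26% and GTTGCC in 10.2%. DKK1 held CTTTGA once on each strand. RNF43 held GTTGCC once in the window shown and not in its other RefSeq window (chr17:58402722-58402971). None of the 3 motifs was found in the windows of WNT4, WNT7A, LEF1 or TCF7. These letters describe the windows and are not measured binding sites.

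The tables give 1 value per comparison and none per library. Mean counts per library were recovered at 26640700 to 27273500 in the 4 groups. RFX7 itself was at 944 and 1332 normalized counts in siControl with DMSO and Nutlin-3a and at 185 and 302 in siRFX7, so the knockdown was seen in both treatments. In siControl the p53 targets MDM2 and CDKN1A went from 4705 and 5493 normalized counts with DMSO to 74982 and 121149 with Nutlin-3a. In siRFX7 they went from 6591 and 13389 to 64906 and 154897. Both were thus higher with siRFX7 in DMSO, by 0.49 and 1.29 (log2, DESeq2 adjusted p 1.19e-12 and 5.01e-39, per the authors' deposited table). Under Nutlin-3a the siRFX7 difference was -0.21 for MDM2 and 0.35 for CDKN1A (DESeq2 adjusted p 0.00456 and 0.00117, per the authors' deposited table). Their Nutlin-3a responses were smaller in siRFX7 than in siControl, by -0.69 and -0.93 (log2, z test adjusted p 1.90e-12 and 7.17e-10). Of 8 markers of colorectal epithelium 7 were listed, and CDX1 was not. Their summed level was 80679 to 180742 normalized counts by group, highest in siControl with Nutlin-3a, most of it KRT8 and KRT18. With Nutlin-3a in siControl 4 were called higher (CDH1, KRT8, KRT18 and CDX2) and 2 were not called (KRT20 and VIL1). EPCAM was called lower, from 8665 to 6077. KRT20 and VIL1 were low, at means of 30.5 and 8.0. The intestinal stem cell markers LGR5, ASCL2 and SMOC2 were not listed and OLFM4 had a mean of 1.34 normalized counts, while SOX9, the other gene of that list, was at 2420 to 8102 by group, lower with siRFX7 and higher with Nutlin-3a. The endothelial markers VWF and KDR, in all 4 tables, summed to 17 to 19.5 by group, and PECAM1 and CDH5 were not listed. LYZ, the leukocyte marker in all 4 tables, was at 2.36 to 3.82, and PTPRC and CD3E were not listed. The 2 fibroblast markers in all 4 tables, COL1A1 and PDGFRB, summed to 369 to 536, nearly all of it COL1A1. The part of these markers in the results below was not tested.

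Per kilobase of exon, WNT7A and WNT4 were the lowest of the 8 genes in siControl with DMSO, and each was highest with siRFX7 and Nutlin-3a together. WNT7A (ENSG00000154764, chr3:13816258-13880121) encodes a secreted ligand that can signal through beta-catenin. Its mean normalized count, recovered from the authors' deposited tables, was 7.35 in siControl with DMSO, 27.0 in siControl with Nutlin-3a, 23.4 in siRFX7 with DMSO and 155 in siRFX7 with Nutlin-3a. Each factor alone thus gave a similar level, and both together gave a level 21.1-fold that of siControl with DMSO. In bulk RNA, fewer cells that express a gene and less RNA per cell cannot be told apart.

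Under DMSO, in libraries that the choice of WNT7A did not use, siRFX7 raised it by 1.67 (log2) in the authors' deposited table (standard error 0.41, DESeq2 adjusted p 0.000343). Under Nutlin-3a, the comparison by which it was chosen, the difference was 2.52 (standard error 0.28) in the authors' deposited table, given as a description. With Nutlin-3a against DMSO the log2 fold change was 1.88 (standard error 0.41) in siControl and 2.73 (standard error 0.28) in siRFX7, per the authors' deposited tables. Both Nutlin-3a comparisons share libraries with the comparison that chose the gene, so no test is given for them. The replicate coefficient of variation in the authors' model was 18.0%, the widest of the 8 genes.

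WNT4 (ENSG00000162552, chr1:22117305-22143969) encodes a ligand best known from kidney and female reproductive tract development. Its recovered group means were 20.7 in siControl with DMSO, 42.0 in siControl with Nutlin-3a, 29.2 in siRFX7 with DMSO and 175 in siRFX7 with Nutlin-3a. The last group stood apart from the other 3, at 8.46-fold the level of siControl with DMSO. In DMSO the siRFX7 difference of WNT4 did not pass, at 0.49 (standard error 0.29, DESeq2 adjusted p 0.204) in the authors' deposited table, with a 95% interval of -0.07 to 1.06. Under Nutlin-3a, where the gene was chosen, it was 2.06 (standard error 0.22) in the authors' deposited table. Its response to Nutlin-3a was 1.02 (log2) in siControl (standard error 0.28) and 2.59 in siRFX7 (standard error 0.23), per the authors' deposited tables. As for WNT7A, these comparisons share libraries with the one that chose the gene and are given as a description.

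Among the 2913 genes called higher with siRFX7 under Nutlin-3a, WNT7A ranked 14th and WNT4 39th by log2 fold change. The next WNT ligand in that order was WNT7B at 194, followed by WNT10A at 438 and WNT3A at 1169. The choice named no numeric threshold. In the authors' deposited table the log2 fold change went from 2.06 for WNT4, the lower of the chosen ligands, to 1.29 for WNT7B, the next one.

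**Figure D1:**
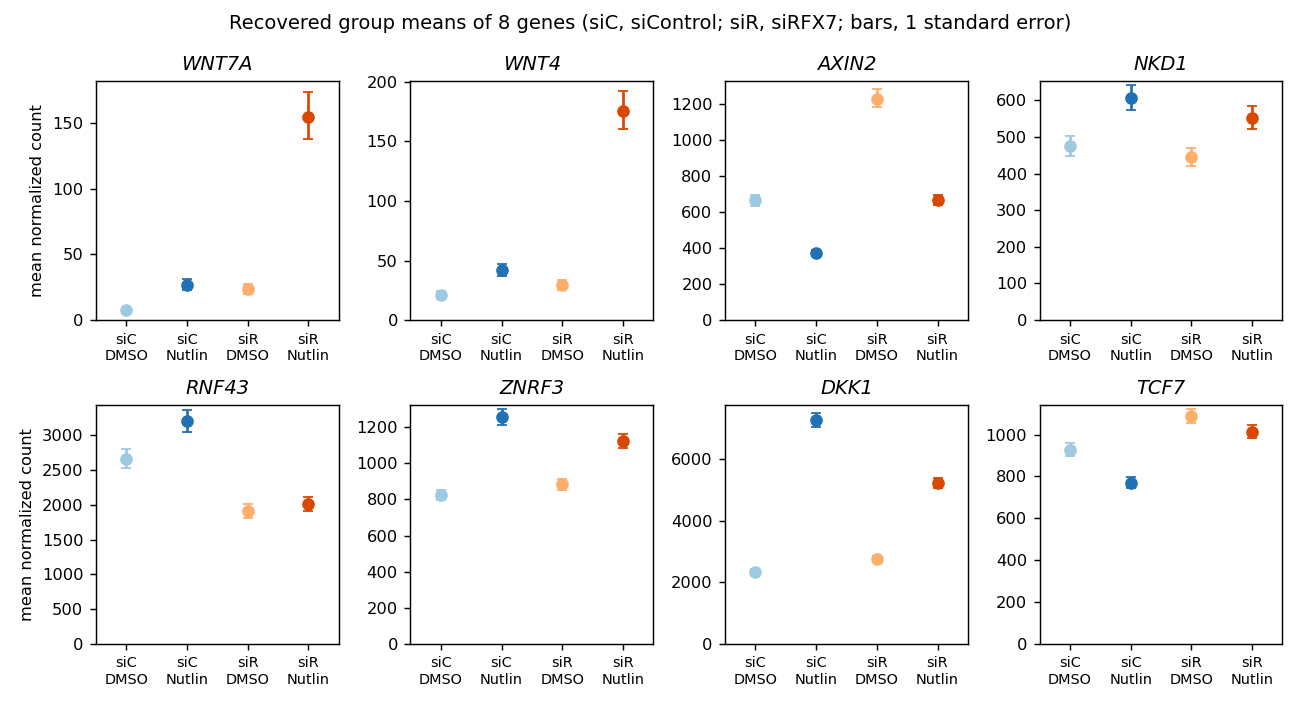
Mean normalized counts (linear axes from 0) recovered for the 8 genes listed in all 4 tables, by siRNA and treatment, with bars of 1 standard error of the authors' model. WNT7A and WNT4 peak in siRFX7 with Nutlin-3a (155 and 175), DKK1 peaks in siControl with Nutlin-3a (7276), and AXIN2 peaks in siRFX7 with DMSO (1230).

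DKK1, the secreted inhibitor of LRP5 and LRP6, had the highest level of the set per kilobase of exon and moved with siRFX7 in opposite directions in the 2 treatments. DKK1 (ENSG00000107984, chr10:52314296-52318042) had recovered group means of 2343 in siControl with DMSO, 7276 in siControl with Nutlin-3a, 2771 in siRFX7 with DMSO and 5217 in siRFX7 with Nutlin-3a. Nutlin-3a thus raised DKK1 with either siRNA, and the rise was smaller with siRFX7. The log2 fold change for Nutlin-3a was 1.63 in siControl (standard error 0.07, DESeq2 adjusted p 7.28e-130) in the authors' deposited table. In siRFX7 it was 0.91 (standard error 0.07, DESeq2 adjusted p 3.89e-41) in the authors' deposited table. The difference between these responses, the interaction, was -0.72 (standard error 0.09, z test adjusted p 5.14e-12 over 23195 genes). With siRFX7, DKK1 rose by 0.24 under DMSO (standard error 0.07, DESeq2 adjusted p 0.00218) and fell by 0.48 under Nutlin-3a (standard error 0.07, DESeq2 adjusted p 9.40e-12), per the authors' deposited tables. Exons of DKK1 share 212 bases, 9.61% of its exon bases, with the antisense gene PRKG1-AS1, whose mean was 26.8 normalized counts.

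RNF43 and ZNRF3 encode membrane ubiquitin ligases that remove Frizzled receptors from the cell surface. RNF43 fell with siRFX7 in both treatments, and ZNRF3 was not called with siRFX7 in either. RNF43 (ENSG00000108375, chr17:58352500-58417595) had recovered group means of 2662 in siControl with DMSO, 3201 in siControl with Nutlin-3a, 1910 in siRFX7 with DMSO and 2005 in siRFX7 with Nutlin-3a. Both siRFX7 groups lay below both siControl groups. With siRFX7, RNF43 fell by 0.48 under DMSO (standard error 0.10, DESeq2 adjusted p 2.59e-05) and by 0.68 under Nutlin-3a (standard error 0.10, DESeq2 adjusted p 7.11e-10), per the authors' deposited tables. Nutlin-3a raised it by 0.27 in siControl (standard error 0.10, DESeq2 adjusted p 0.0215) in the authors' deposited table. In siRFX7 the change was 0.07 (standard error 0.10, DESeq2 adjusted p 0.645) in the authors' deposited table, with a 95% interval of -0.13 to 0.27. The interaction of RNF43 was -0.20 (95% interval -0.48 to 0.08 and not called), so a difference between these responses was not shown. RNF43 shares 57.6% of its exon bases with the same-strand gene AC004687.2, which was not listed, and 20.3% with the antisense gene TSPOAP1-AS1, at 9.03 normalized counts. The setting by which reads in shared bases were counted is not given in the sources used here, so the RNF43 values are uncertain to that extent.

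ZNRF3 (ENSG00000183579, chr22:28883592-29057487) stood at 824 in siControl with DMSO, 1256 in siControl with Nutlin-3a, 884 in siRFX7 with DMSO and 1126 in siRFX7 with Nutlin-3a. Both Nutlin-3a groups lay above both DMSO groups. Nutlin-3a raised ZNRF3 by 0.61 in siControl (standard error 0.07, DESeq2 adjusted p 1.48e-16) and by 0.35 in siRFX7 (standard error 0.07, DESeq2 adjusted p 4.51e-06), per the authors' deposited tables. The siRFX7 difference was 0.10 in DMSO (DESeq2 adjusted p 0.329, 95% interval -0.04 to 0.24) and -0.16 under Nutlin-3a (DESeq2 adjusted p 0.0741, 95% interval -0.30 to -0.02), per the authors' deposited tables. Its interaction was -0.26 (standard error 0.10, z test adjusted p 0.114). LGR5 (ENSG00000139292, chr12:71439770-71586310), a receptor for R-spondins, which protect Frizzled receptors from these ligases, was listed in none of the 4 tables, and no value is given for it.

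AXIN2, a scaffold of the complex that destroys beta-catenin and a widely used readout of the pathway, rose with siRFX7 and fell with Nutlin-3a by nearly the same amount. AXIN2 (ENSG00000168646, chr17:65528563-65561647) had recovered group means of 664 in siControl with DMSO, 373 in siControl with Nutlin-3a, 1230 in siRFX7 with DMSO and 666 in siRFX7 with Nutlin-3a. The highest and lowest groups were the 2 in which a single factor was applied. With siRFX7 the log2 fold change was 0.89 under DMSO (standard error 0.09, DESeq2 adjusted p 4.46e-23) and 0.84 under Nutlin-3a (standard error 0.09, DESeq2 adjusted p 2.23e-17), per the authors' deposited tables. The Nutlin-3a value was -0.83 in siControl (standard error 0.09, DESeq2 adjusted p 5.35e-18) and -0.88 in siRFX7 (standard error 0.09, DESeq2 adjusted p 1.12e-23), per the authors' deposited tables. Both factors together left AXIN2 at 0.0045 (log2) from siControl with DMSO, with a 95% interval of -0.17 to 0.18. The interaction was -0.05 (95% interval -0.30 to 0.20, z test adjusted p 0.929). AXIN2 shares 25.2% of its exon bases with the same-strand gene AC004805.1, which was not listed.

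NKD1 (ENSG00000140807, chr16:50548330-50649249), which binds dishevelled and damps the signal inside the cell, had recovered group means of 474 in siControl with DMSO, 607 in siControl with Nutlin-3a, 445 in siRFX7 with DMSO and 553 in siRFX7 with Nutlin-3a. The Nutlin-3a groups were the higher ones with either siRNA. Nutlin-3a raised NKD1 by 0.36 in siControl (standard error 0.11, DESeq2 adjusted p 0.00563) and by 0.31 in siRFX7 (standard error 0.12, DESeq2 adjusted p 0.0175), per the authors' deposited tables. The call in siRFX7 was lost when the groups were scaled to equal totals (adjusted p 0.0561). For siRFX7 the difference was -0.09 in DMSO (DESeq2 adjusted p 0.616, 95% interval -0.32 to 0.13) and -0.13 under Nutlin-3a (DESeq2 adjusted p 0.428, 95% interval -0.36 to 0.09), per the authors' deposited tables. AXIN2 and NKD1, both intracellular inhibitors, thus moved in opposite directions with Nutlin-3a.

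TCF7 encodes one of the DNA-binding partners of beta-catenin. It rose with siRFX7, as AXIN2 did, and fell with Nutlin-3a in siControl. TCF7 (ENSG00000081059, chr5:134114711-134151865) had recovered group means of 927 in siControl with DMSO, 770 in siControl with Nutlin-3a, 1089 in siRFX7 with DMSO and 1014 in siRFX7 with Nutlin-3a. With siRFX7, TCF7 rose by 0.23 under DMSO (standard error 0.07, DESeq2 adjusted p 0.00216) and by 0.40 under Nutlin-3a (standard error 0.07, DESeq2 adjusted p 5.77e-08), per the authors' deposited tables. With Nutlin-3a it fell by 0.27 in siControl (standard error 0.07, DESeq2 adjusted p 0.000268) in the authors' deposited table. In siRFX7 its change was -0.10 (DESeq2 adjusted p 0.210, 95% interval -0.23 to 0.02) in the authors' deposited table, and scaling to equal totals turned this into a call (adjusted p 0.0388). TCF7 shares 2.09% of its exon bases with SKP1 on the opposite strand, at 3380 normalized counts.

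LEF1 (ENSG00000138795, chr4:108047545-108168956), a related DNA-binding partner, was listed only in the Nutlin-3a tables. Its mean over the 12 libraries was 1.34 normalized counts, under the floor of 3 counts, so no fold change was read. Neither Nutlin-3a comparison called it (DESeq2 adjusted p 0.800 in siControl and 0.546 with siRFX7, per the authors' deposited tables).

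**Figure D2:**
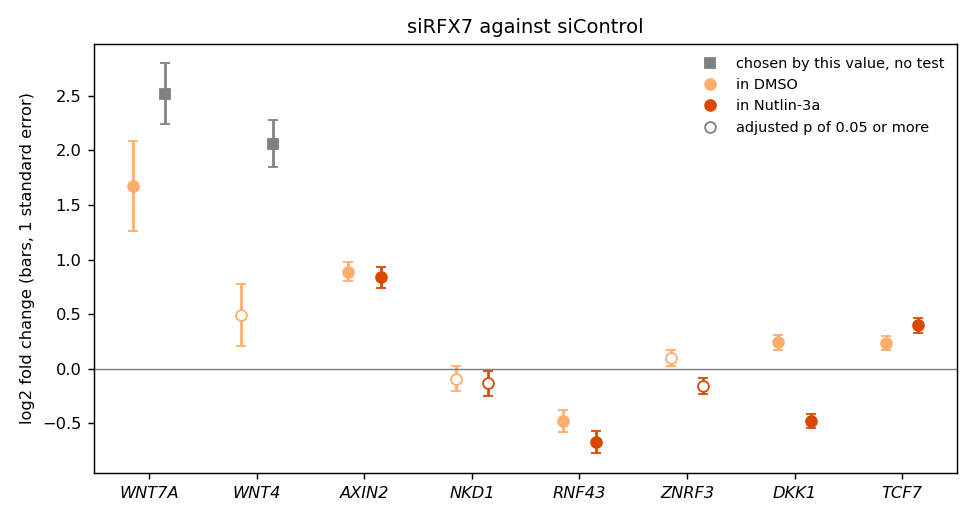
Log2 fold change of siRFX7 against siControl (vertical axis) for 8 genes in DMSO and in Nutlin-3a, with bars of 1 standard error from the authors' deposited tables. AXIN2 and TCF7 lie above 0 and RNF43 below 0 in both treatments, DKK1 changes side, and the grey squares are the values by which WNT7A and WNT4 were chosen.

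A gene was called changed at an adjusted p below 0.05, and the members' counts were read against the share of all genes called. With siRFX7 in DMSO, 5 of the 8 listed genes were called in the authors' deposited table, against 29% of 20026 genes. The 4 higher ones were WNT7A, AXIN2, DKK1 and TCF7, where 13.5% of all genes were called higher, and the lower one was RNF43, where 15.5% were called lower. Over all genes this split was 2704 higher to 3107 lower, and 3391 to 2262 when the groups were scaled to equal totals, which left the members' calls as they were. Among 16959 genes with a mean of at least 10, as all 8 members had, 2704 were called higher and 3186 lower. That is a larger share than over all genes. Without WNT4 and WNT7A, picked for rising with the same siRNA, 3 of 6 genes were called higher and 1 lower. The median log2 fold change was 0.17 over those 6 genes, 0.24 over the 8 genes and -0.003 over all genes.

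Under Nutlin-3a, siRFX7 gave 6 calls among the 8 genes in the authors' deposited table, against 28.6% of 19393 genes. WNT4, WNT7A, AXIN2 and TCF7 were the 4 higher ones, with 15% of all genes called higher, and RNF43 and DKK1 the 2 lower ones, with 13.6% called lower. Among 16959 genes with a mean of at least 10, the share was larger, with 2951 called higher and 2666 lower. WNT4 and WNT7A had been chosen by this comparison, and 4 of the other 6 genes were called. The median was -0.15 over those 6 genes, 0.13 with the 2 chosen ligands and 0.002 over all genes.

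Nutlin-3a in siControl gave 8 calls among 9 listed genes in the authors' deposited table, LEF1 being the exception, against 43.2% of 23195 genes. Of these, 6 were higher and 2 lower, with 22% and 21.2% of all genes called higher and lower. Among 16959 genes with a mean of at least 10, as all listed members but LEF1 had, the share was larger. There 5050 genes were called higher and 4827 lower. Leaving out WNT4 and WNT7A, which share libraries with the comparison that chose them, 6 of 7 genes were called. In siRFX7, Nutlin-3a gave 6 calls among the 9 genes in the authors' deposited table, against 41.4% of all genes. Of the members, 5 were higher and only AXIN2 was lower, with 21.7% and 19.7% of all genes called. Among the 16959 genes with a mean of at least 10, the share was again larger, with 4946 called higher and 4520 lower. Without the 2 ligands, 4 of 7 genes were called. Over the 6 genes left when LEF1, under the floor, was also set aside, the medians were 0.31 in siControl and 0.19 in siRFX7. They were 0.48 and 0.33 with the 2 ligands, and 0.017 and -0.018 over all genes.

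**Figure D3:**
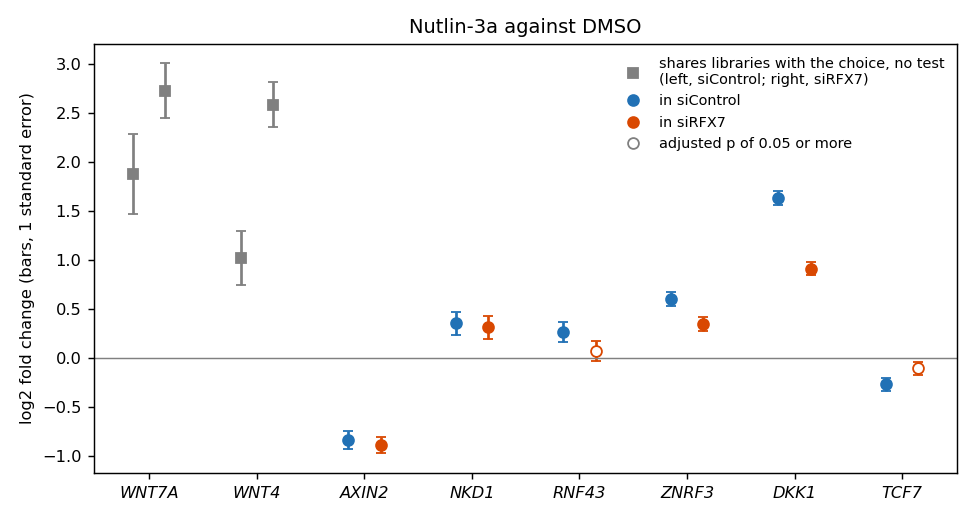
Log2 fold change of Nutlin-3a against DMSO (vertical axis) for 8 genes in siControl and in siRFX7, with bars of 1 standard error from the authors' deposited tables. NKD1, ZNRF3 and DKK1 lie above 0 and AXIN2 below 0 with both siRNAs, open points had an adjusted p of 0.05 or more, and the grey squares of WNT7A and WNT4 carry no test.

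The interaction, the Nutlin-3a response in siRFX7 less that in siControl, was called for 6.2% of 23195 genes. It was above 0 in 3.28% and below 0 in 2.92% of them, or in 760 and 677 genes, and in 583 and 792 after scaling to equal totals. Of the 7 listed genes other than WNT7A and WNT4, DKK1 alone was called. If the 2 log2 effects had added, DKK1 would have had a mean of 8607 normalized counts in siRFX7 with Nutlin-3a, against 5217 recovered. For AXIN2 the sum of the 2 effects would have given 690, against 666 recovered. TCF7 had an interaction of 0.16 (95% interval -0.02 to 0.35) and NKD1 one of -0.04 (95% interval -0.36 to 0.28), and neither was called. The 2 ligands are described without a test, since their interaction holds the comparison that chose them: 1.57 (standard error 0.36) for WNT4, with 59.1 normalized counts if the effects had added and 175 recovered, and 0.85 (standard error 0.49) for WNT7A, with 86.1 and 155.

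**Figure D4:**
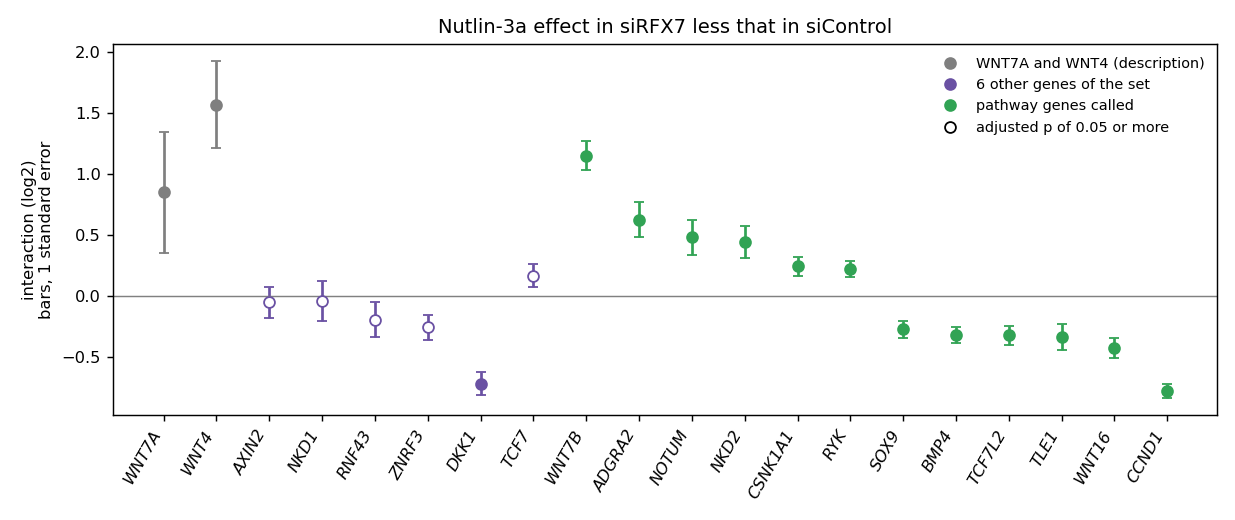
Interaction on the log2 scale (Nutlin-3a effect in siRFX7 less that in siControl) for the 8 genes and for the 12 other pathway genes in which it was called, with bars of 1 standard error. DKK1 (-0.72) and CCND1 (-0.78) lie lowest, and WNT7B (1.15) lies highest among the other pathway genes. The 12 genes are shown because they were called, and 6.2% of all genes were called.

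Levels were compared between genes per kilobase of exon, using all annotated exon bases of a gene. In siControl with DMSO, DKK1 led at 1062 normalized counts per kilobase, followed by RNF43 at 355, AXIN2 at 127, ZNRF3 at 118, TCF7 at 92.1, NKD1 at 27.2, WNT4 at 4.58 and WNT7A at 1.6. AXIN2 and ZNRF3 differed by 0.10 (log2), less than 2 standard errors, and each other pair of neighbours in this order differed by more. In siControl with Nutlin-3a, DKK1 stood at 3298 per kilobase and AXIN2, at 71.3, had moved below TCF7, at 76.5, a pair within 2 standard errors. In siRFX7 with DMSO, AXIN2 stood at 235 per kilobase, within 2 standard errors of RNF43 at 255, and WNT4 at 6.44 lay within 2 standard errors of WNT7A at 5.11. With siRFX7 and Nutlin-3a together, WNT4 at 38.7, WNT7A at 33.9 and NKD1 at 31.7 normalized counts per kilobase formed the lower end, and neighbours among these 3 were within 2 standard errors. The ligands therefore lay below NKD1 in the first 3 groups and level with it in the last. Where a cell uses only part of the annotated exons, as may be so for NKD1 with its 17425 annotated exon bases, the value per kilobase is too low.

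Genes whose 4 log2 fold changes lay closest to those of each ligand were found by Euclidean distance among 13722 genes with a mean of at least 50 normalized counts. For WNT7A the 5 nearest were SCN3B (distance 0.905), WNT4 (1.54), NTN1 (1.57), SERPINA1 (1.62) and SUSD2 (1.66). For WNT4 they were LAMP3 (1.08), NTN1 (1.24), SEPT4 (1.34), SCN3B (1.36) and RASSF6 (1.38), and WNT7A came 12th at 1.54. NTN1, which encodes the secreted guidance cue netrin-1, and SCN3B, which encodes a sodium channel subunit, were near both. Among the 4 values is the siRFX7 difference under Nutlin-3a, by which both ligands were chosen. Their nearness to each other thus follows in part from that choice. The distance rests on 4 group means and describes likeness only. Standard errors of the 4 log2 fold changes were 0.28 to 0.41 for WNT7A and 0.22 to 0.29 for WNT4. The order of genes at similar distances is therefore uncertain.

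The counts for the pathway lists below stand beside 29% and 28.6% of all genes called with siRFX7 in DMSO and under Nutlin-3a. Both shares were larger among genes with a mean of at least 10, as given above. The other ligands were called in both directions. Of 17 further WNT genes 11 were listed, and siRFX7 raised 4 and lowered 2 of them in DMSO and raised 5 and lowered 2 under Nutlin-3a, in the authors' deposited tables, with medians of 0.40 and 0.38. WNT7B, a ligand of the same subfamily as WNT7A, had means of 418, 418, 459 and 1021 normalized counts in siControl with DMSO, siControl with Nutlin-3a, siRFX7 with DMSO and siRFX7 with Nutlin-3a, so that only the last group stood out. Its siRFX7 difference was 0.14 in DMSO (DESeq2 adjusted p 0.256) and 1.29 under Nutlin-3a (standard error 0.08, DESeq2 adjusted p 2.93e-52), per the authors' deposited tables. The interaction of WNT7B was 1.15 (standard error 0.12, z test adjusted p 3.88e-19). WNT10A, with 34.4, 92.1, 79.3 and 168 normalized counts in the same order, rose with siRFX7 by 1.2 in DMSO and 0.87 under Nutlin-3a (DESeq2 adjusted p 5.34e-07 and 1e-05), per the authors' deposited tables. WNT16 had means of 2508, 4061, 2054 and 2475 in that order and fell with siRFX7 by 0.29 in DMSO and 0.71 under Nutlin-3a (DESeq2 adjusted p 1.05e-05 and 5.16e-33), per the authors' deposited tables. WNT5B, with a mean of 11.7, was called higher in DMSO, at 1.24 (standard error 0.47, DESeq2 adjusted p 0.0311), and not under Nutlin-3a (DESeq2 adjusted p 0.247), per the authors' deposited tables. Its interaction was not called, and its DMSO call was lost with a t distribution of 8 degrees of freedom (adjusted p 0.112).

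Of 20 receptor and secretion genes 19 were listed. With siRFX7, 2 were called higher and 3 lower in DMSO (26.3% of the list), and 6 higher and 3 lower under Nutlin-3a (47.4%), in the authors' deposited tables, with medians of -0.11 and -0.005. FZD9, a Frizzled receptor at a mean of 37.3, rose by 0.90 and 1.14 in DMSO and Nutlin-3a (DESeq2 adjusted p 0.0235 and 0.00224), per the authors' deposited tables. The call in DMSO was lost with a t distribution of 8 degrees of freedom (adjusted p 0.0996). FZD1 fell by 0.48 and 0.26 (DESeq2 adjusted p 1.43e-06 and 0.0386), per the authors' deposited tables, and the call under Nutlin-3a was lost with equal totals (adjusted p 0.0689) and with the t distribution (0.124). The WNT receptor ROR1 fell by 0.63 in DMSO (DESeq2 adjusted p 1.10e-05), in the authors' deposited table. ADGRA2, a co-receptor for WNT7 ligands with RECK, had means of 420, 848, 370 and 1155 and was called higher with siRFX7 under Nutlin-3a, at 0.45 (standard error 0.10, DESeq2 adjusted p 3.17e-05), in the authors' deposited table. RECK was not called with siRFX7 in either treatment. Of 6 R-spondins and LGR receptors 4 were listed, RSPO4 rose in both treatments, by 1.08 and 0.84 (DESeq2 adjusted p 0.000251 and 0.00927), per the authors' deposited tables, and none fell. With the t distribution the RSPO4 call under Nutlin-3a was lost (adjusted p 0.0713). LGR6 was called under Nutlin-3a, at 1.29 (standard error 0.33, DESeq2 adjusted p 0.000588), in the authors' deposited table.

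Most of the further antagonists outside the cell were not called with siRFX7. Those that were called were higher, while DKK1, described above, rose in DMSO and fell under Nutlin-3a. Of 16 genes 8 were listed in DMSO and 7 under Nutlin-3a, 3 rose in each and none fell, in the authors' deposited tables, with medians of 0.54 and 0.36. The median in DMSO included SFRP4, under the floor of 3 counts there. Over the 7 genes listed in both treatments the medians were 0.50 and 0.36. NOTUM, an enzyme that inactivates WNT ligands by removing their lipid, had means of 415, 431, 618 and 894 in siControl with DMSO, siControl with Nutlin-3a, siRFX7 with DMSO and siRFX7 with Nutlin-3a. It rose with siRFX7 by 0.57 in DMSO and 1.05 under Nutlin-3a (DESeq2 adjusted p 1.62e-07 and 1.18e-24), per the authors' deposited tables. KREMEN2, a receptor for DKK proteins, rose by 0.50 and 0.44 (DESeq2 adjusted p 0.000143 and 0.000333), per the authors' deposited tables. The related KREMEN1 rose under Nutlin-3a, by 0.29 (DESeq2 adjusted p 0.00180), in the authors' deposited table. The main count in DMSO was 37.5% of the listed antagonists, beside 29% of all genes, and it depended on the setting. With scaling to equal totals 5 of the 8 were called, where 3391 of all genes were higher and 2262 lower. It was 2 at an adjusted p below 0.01, 2 with the t distribution and 1 at a minimum absolute log2 fold change of 0.58. All these calls were higher. DKK3 was called higher in DMSO (DESeq2 adjusted p 0.0365 in the authors' deposited table). Its siControl mean there was 1.34, under the floor of 3 counts per library, so no fold change was read. Its siRFX7 mean of 6.65 was 2.22-fold that floor, and its log2 fold change carried a standard error of 0.90.

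Of 18 dishevelled and destruction complex genes, all listed, siRFX7 lowered 7 and raised 2 in DMSO, and lowered 4 and raised 3 under Nutlin-3a, in the authors' deposited tables (medians -0.14 and -0.02). The counts in DMSO were again 7 and 2 with scaling to equal totals. DVL2, one of the dishevelled proteins that relay the signal, fell by 0.42 and 0.44 (DESeq2 adjusted p 2.18e-07 and 1.79e-07), per the authors' deposited tables. AXIN1, the relative of AXIN2 that is not known as a feedback target, had means of 985, 712, 738 and 611 and fell by 0.42 and 0.22 (DESeq2 adjusted p 3.28e-07 and 0.0201), per the authors' deposited tables, the call under Nutlin-3a being lost with the t distribution (adjusted p 0.0948). AXIN1 and AXIN2 thus moved in opposite directions with siRFX7, while both fell with Nutlin-3a. NKD2, the relative of NKD1, fell by 0.47 in DMSO (DESeq2 adjusted p 7.30e-06) and was not called under Nutlin-3a, in the authors' deposited tables. APC2 rose by 1.06 and 0.998 (DESeq2 adjusted p 3.70e-07 and 1.24e-05), per the authors' deposited tables. CTNNB1, which encodes beta-catenin, had means of 14022 to 15861 normalized counts by group and was not called with siRFX7 in either treatment.

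Among nuclear partners of beta-catenin, 13 of 14 were listed. With siRFX7, 1 was higher and 1 lower in DMSO, and 2 were higher and 3 lower under Nutlin-3a, in the authors' deposited tables, with medians of -0.03 and -0.02. CTNNBIP1, an inhibitor that keeps beta-catenin from TCF factors, rose by 0.32 and 0.28 (DESeq2 adjusted p 0.000169 and 0.000605), per the authors' deposited tables. The co-repressor gene TLE3 fell by 0.37 and 0.52 (DESeq2 adjusted p 1.33e-07 and 1.23e-13), per the authors' deposited tables. TCF7L2, the main TCF factor of gut epithelium, and the co-repressor gene TLE1 fell under Nutlin-3a, by 0.32 and 0.38 (DESeq2 adjusted p 1.77e-07 and 8.06e-06), in the authors' deposited table.

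Further genes known as beta-catenin targets split in both directions with siRFX7. Of 16 genes 13 were listed, and 4 rose and 6 fell in DMSO and 2 rose and 6 fell under Nutlin-3a, in the authors' deposited tables (medians -0.05 and -0.09). SOX9, a transcription factor of intestinal progenitors, had means of 3940, 8102, 2420 and 4114 and fell with siRFX7 by 0.70 and 0.98 (DESeq2 adjusted p 4.29e-40 and 1.50e-83), per the authors' deposited tables. CCND1, which encodes cyclin D1, had means of 19533, 59509, 17738 and 31488 and fell by 0.14 in DMSO and 0.92 under Nutlin-3a (DESeq2 adjusted p 0.00495 and 5.89e-105), per the authors' deposited tables. The growth factor gene FGF9 fell by 0.80 in each treatment (DESeq2 adjusted p 5.49e-06 and 9.61e-06), per the authors' deposited tables. SP5, a transcription factor gene that is a direct target in many tissues, rose in DMSO by 0.68 (standard error 0.22, DESeq2 adjusted p 0.00919), and its difference under Nutlin-3a was 0.48 (DESeq2 adjusted p 0.135), per the authors' deposited tables. The DMSO calls of SP5 and CCND1 were lost with the t distribution (adjusted p 0.0700 and 0.0567), and that of CCND1 also with equal totals, at -0.082 (adjusted p 0.136). With equal totals, 4 of the 13 genes rose and 4 fell in DMSO. AXIN2, TCF7 and NOTUM therefore rose with siRFX7 in DMSO while RNF43, SOX9 and FGF9 fell, so genes grouped as beta-catenin targets did not share a direction.

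**Figure D5:**
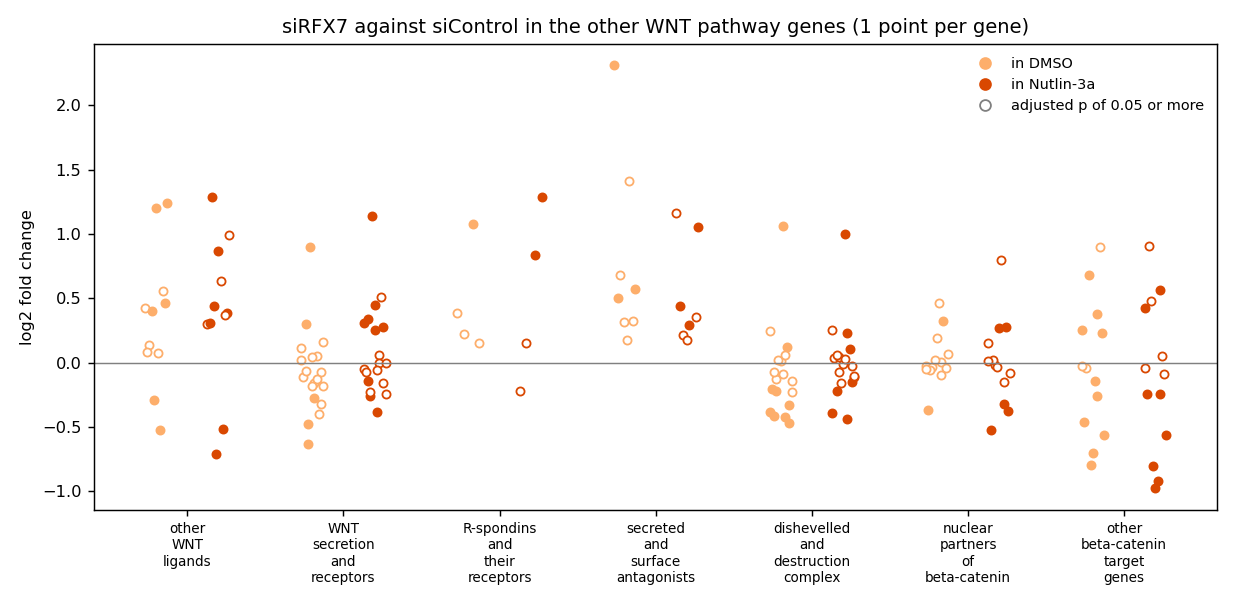
Log2 fold change of siRFX7 against siControl (vertical axis) for each listed gene of 7 pathway lists in DMSO and Nutlin-3a, filled where the adjusted p in the authors' deposited table was below 0.05. Called antagonists and R-spondin genes lie above 0, and the other lists hold called genes on both sides.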

How the data were processed

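PolyA RNA of 12 libraries (4 groups of 3, grouped by their titles) was sequenced. The submitters' processing notes name bcl2fastq 2.20.0.422, Trimmomatic 0.39, FastQC 0.11.9, cutadapt 2.10, SAMtools 1.10, Picard, featureCounts 1.6.5, DESeq2 1.20.0 and the build hg38. The aligner, annotation and strand setting are not given in the sources used here. The authors deposited 4 DESeq2 tables. Mean normalized counts are a signal per the file headers, namely counts divided by size factors. Fold changes and standard errors are on the log2 scale, per the file headers. The statistic is a score and equals their ratio in the deposited tables. P-values and adjusted p-values are the authors', and the adjusted ones equal a Benjamini-Hochberg adjustment over each table's genes.

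No test on counts per library was possible, so calls use the authors' adjusted p below 0.05. Fold changes of the siRFX7 tables were taken with siControl as the base, since the 4 log2 fold changes then closed to within 1.29e-14 (median error 0.374 the other way). Group means, group depth and dispersions were solved from the tables, and predicted the standard errors of siRFX7 in DMSO with a median error of 0.00015%. The depth of single libraries is unknown, and the floor of 3 counts covers counting error only. The interaction used a two-sided z test adjusted over 23195 genes, and 95% intervals are 1.96 standard errors. The code was tested on simulated data. Coordinates and exon bases are from GENCODE 29 (GRCh38). Python 3.11.15, numpy 2.4.6, pandas 2.3.3, scipy 1.17.1 and matplotlib 3.10.9 were used.

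The members and lists were chosen with earlier results of these data known. The text names the 10 members, RFX7, MDM2 and CDKN1A as label checks, of each list up to 4 genes with the largest called siRFX7 change and a mean of at least 10 normalized counts, genes that a count of 5 or fewer singles out, and the 5 nearest patterns of each ligand. Others, such as CTNNB1 and RECK, were named after their values were seen. Alternatives were an adjusted p below 0.01, a minimum absolute log2 fold change of 0.58, scaling to equal totals or to the median of genes with a mean of at least 100, a mean of at least 10, genes in all 4 tables, and a t distribution with 8 degrees of freedom.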

Additional observations from a re-analysis of the deposited data

Results flagged for a closer look

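For 13 of the named members and list genes, the 2 chosen ligands apart, the response to Nutlin-3a was not the same with the 2 siRNAs. This was judged by the z test on the interaction with adjustment over all 23195 genes, of which 6.2% were called. Several of these genes were named for the size of their siRFX7 effect, which the interaction contains. RYK, CSNK1A1 and BMP4 were named because their interaction was called, so the count of 13 is a description. Calls numbered 2 of 19 listed receptor and secretion genes, 1 of 8 antagonists and 2 of 18 destruction complex genes. They numbered 2 of 13 nuclear partners and 3 of 13 other targets. Of 11 other ligands 1 was above and 1 below 0, and no R-spondin gene was called. Values are log2 differences, siRFX7 less siControl. Of the members, DKK1 had -0.72. Among ligands, WNT7B had 1.15 and WNT16 had -0.43. The receptors ADGRA2 and RYK had 0.63 and 0.22, and the antagonist NOTUM had 0.48. In the dishevelled and destruction complex list, NKD2 had 0.44 and the kinase gene CSNK1A1 had 0.24. The nuclear partners TCF7L2 and TLE1 had -0.32 and -0.34. Of the other target genes, CCND1 had -0.78, BMP4 had -0.32 and SOX9 had -0.27. With a t distribution of 8 degrees of freedom in place of the normal one, DKK1, WNT7B and CCND1 remained called and the other 10 did not (adjusted p 0.0599 to 0.253). With scaling to equal totals, RYK (adjusted p 0.0666) and CSNK1A1 (0.0772) were not called.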

How the results depend on the processing

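Requiring an absolute log2 fold change of at least 0.58 left 2 of 5 members called with siRFX7 in DMSO and 5 of 8 with Nutlin-3a in siControl. With a t distribution of 8 degrees of freedom, the members with an interaction at an adjusted p below 0.05 went from 2, which include WNT4, described only, to 1, DKK1. Counts of called members under the other settings stayed within 1.5 times. Single calls were lost for RNF43 with Nutlin-3a in siControl under the t distribution (adjusted p 0.0765) and at an adjusted p below 0.01, and for NKD1 in siRFX7 under the t distribution (0.0712), at 0.01 and with equal totals (0.0561). No member changed sign. Values near 0 that did were TLE1 with siRFX7 in DMSO at 0.014 with equal totals, WNT7B with Nutlin-3a in siControl at -0.021 with equal totals and -0.016 with median scaling, and BMP4 with Nutlin-3a in siRFX7 at -0.028 and -0.00026. The cause was not tested. No scaling moved all genes by more than 0.057 (log2).

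No paired analysis was possible because the tables hold no value per library, and leaving out a replicate was not possible for the same reason. Group means follow from the tables by construction, so another way of solving them was not run. Depth limits WNT7A, WNT4 and LEF1 most: at 7.35 normalized counts in siControl with DMSO, the WNT7A difference carried a standard error of 0.41, against 0.07 for DKK1.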
